A study of Mus musculus with 106 samples.

Results

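The spleen of mice kept at 10 °C was compared with the spleen of mice kept at 22 °C across all genes, to ask which genes of this blood-filtering and immune organ differ after a period of cold. The members are the 6 spleen libraries of the 106 libraries in the series, 3 at each temperature, chosen by the tissue and temperature in their labels. The series holds bulk RNA sequencing of mouse tissues in the cold, at 22 °C and in the warm. All 6 libraries come from wild type C57BL/6 males (C57BL/6J in the methods), labelled as 11 weeks old. The cold group spent 2 weeks at 10 °C, after steps of 5 days each at 18 °C and then 14 °C, and the control group stayed at the room temperature of 22 °C. The mice were 8 weeks old at the start and lived 2 per cage. RNA from 2 mice was pooled for each spleen library, so the 3 libraries of a group stand for 6 mice and p-values measure the spread between pooled libraries, not between single mice. The warmth of 34 °C that the labels repeat on every sample does not belong to these libraries, so titles and study methods gave their temperature.

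The spleen filters blood and houses much of the body's lymphoid tissue. Its white pulp holds follicles of B cells and zones of T cells. Its red pulp holds macrophages that take up old red cells and recycle their iron, stores platelets and monocytes, and in mice also makes blood cells, mainly red cells, platelets and some neutrophils. A neutrophil makes its granules in a fixed order. The primary granules with myeloperoxidase and serine proteases come first, in the promyelocyte, followed by the secondary granules with lactoferrin and then the tertiary granules with gelatinase, and the mature cell carries much S100a8 and S100a9. Messenger RNA for the early granule proteins therefore marks precursors rather than mature cells.

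The libraries held 10078000 to 17243006 counts at 10 °C and 13118205 to 15440156 at 22 °C. Values are CPM, counts as a share of the library's total after TMM scaling and set to a common size, and 14117 of 21647 genes passed the filter of an average log2 CPM above 0. The defining genes of the organ were present in every library, among them the B cell gene Cd79b at 563 to 695 CPM. Genes of neighbouring tissues were also present, unevenly. The summed level of 20 ileum epithelium genes was 618 CPM in replicate 3 at 22 °C and 37.6 to 155 CPM in the other 5 libraries, and 9 Paneth cell genes, which mark the ileal crypts, gave 196 CPM in that library and 20.4 to 38.6 CPM elsewhere. Over 288 genes that are strong in ileum and nearly absent from spleen, that library held a median of 1.2% of the ileum level, against 0.123% to 0.229% in the others. Acinar genes of the pancreas, whose tail lies beside the spleen, summed to 2738 CPM in replicate 2 at 22 °C and to 1549 and 5575 CPM in replicates 1 and 3 at 10 °C, but to 17.6 to 277 CPM in the other 3 libraries. Lars2, a mitochondrial leucyl-tRNA synthetase gene, ran from 245 to 3030 CPM at 22 °C and from 2180 to 50760 CPM at 10 °C. None of the 17 ileum, 8 Paneth cell, 13 pancreas, 3 skeletal muscle, 1 hepatocyte or 1 brown adipocyte genes tested was called. Leaving out a library changed this and the number tested. Without replicate 1 at 22 °C 16 of 20 ileum and 7 of 8 Paneth cell genes were called lower. Without replicate 2 at 22 °C these were 12 of 20 and 4 of 8, and 1 of 13 pancreas genes was called higher. Without replicate 3 at 22 °C 4 of 12 ileum and 1 of 3 Paneth cell genes were instead called higher.

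**Figure D1:**
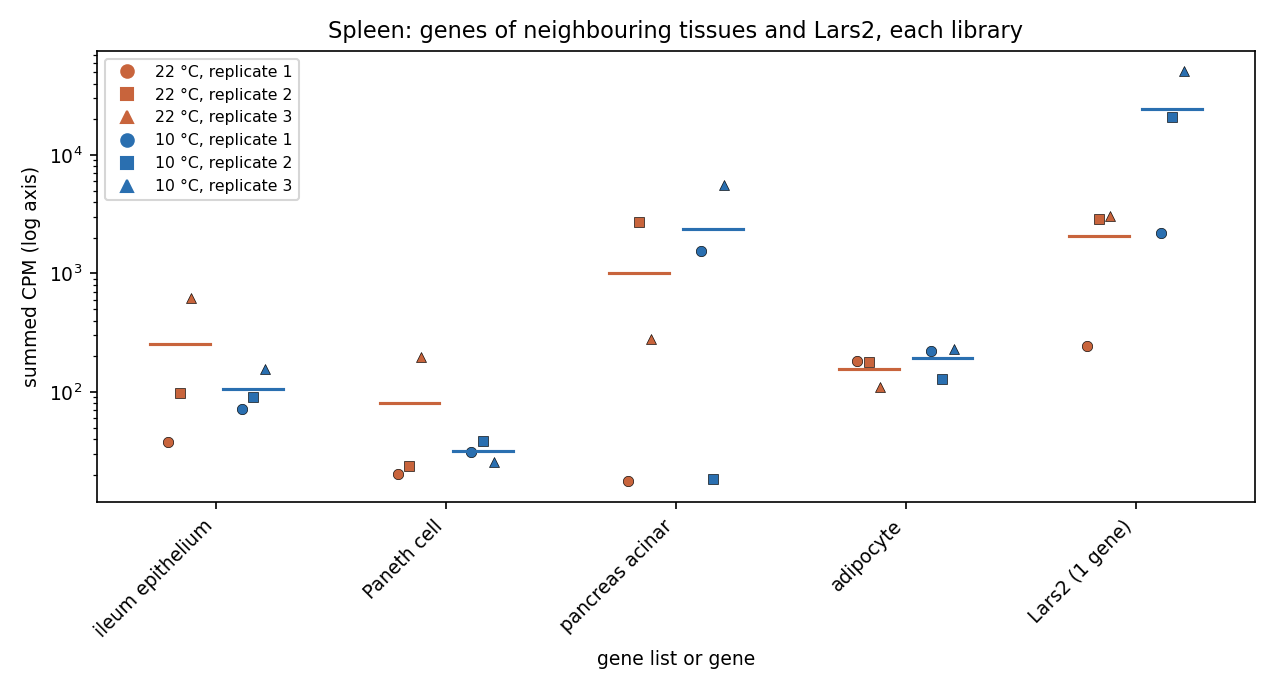
Summed CPM, on a log axis, of the ileum epithelium, Paneth cell, pancreas acinar and adipocyte lists and of Lars2 in each spleen library. Symbols mark the replicate, colours the temperature and bars the group mean. Replicate 3 at 22 °C stands above the other 5 libraries in the ileum and Paneth cell genes, whereas the pancreas genes divide both groups.

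Genes count as called if edgeR's quasi-likelihood test gave an unadjusted p of 0.05 or less and the fold change exceeded 1.5. By this rule 378 genes were called, 2.68% of those tested. Of these 288 were lower at 10 °C, 2.04% of those tested, and 90 were higher, 0.638%. The median log2 fold change of all genes was -0.00. After Benjamini-Hochberg adjustment over all genes 11 remained under 0.05, or 0.0779%, and all 11 were lower at 10 °C. They are Mmp9, Ltf, Capn11, Lcn2, Ngp, Mpo, S100a9, Camp, Hp, Csf3r and Retnlg. Of these, 10 are genes of neutrophils or their granules, the exception being Capn11, a calpain protease gene. None of the 11 overlapped between the groups, but they were chosen by p on the same values, so this adds no separate support. Among all genes 8.46% were lower without overlap and 7.25% higher.

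**Figure D2:**
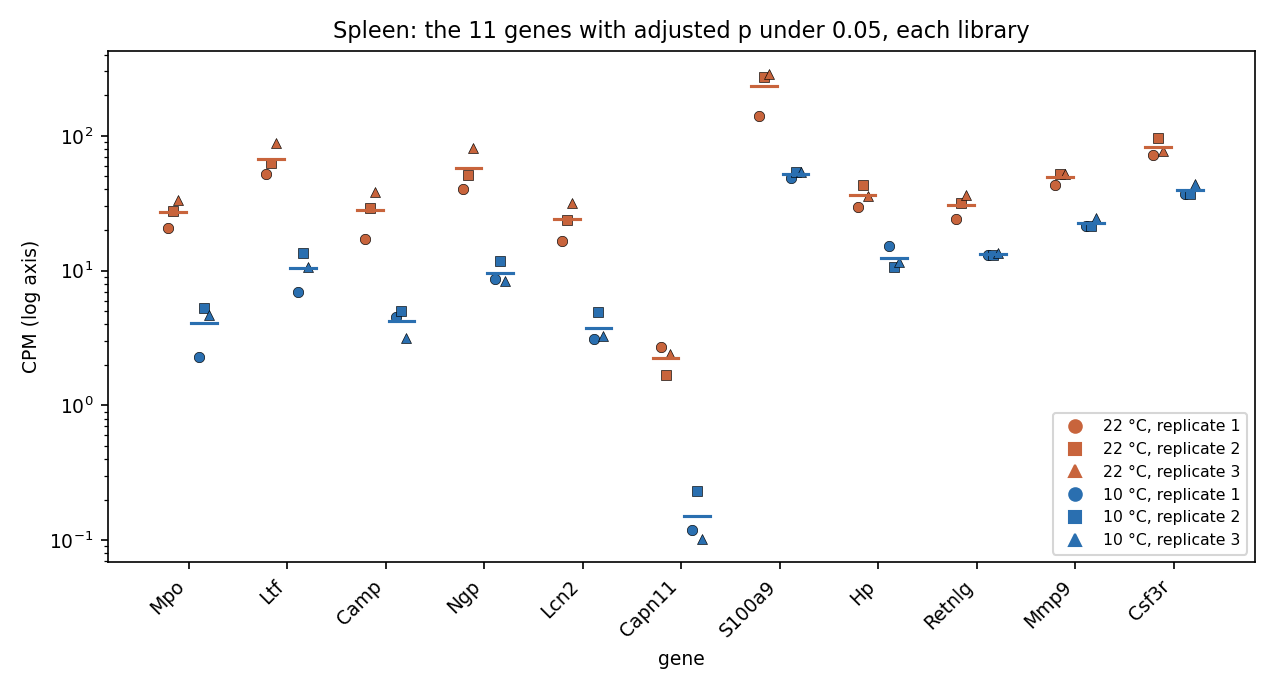
CPM, on a log axis, of the 11 genes with an adjusted p under 0.05 in each spleen library. Symbols mark the replicate, colours the temperature and bars the group mean. For every gene the highest 10 °C library lies below the lowest 22 °C library, and the gap is widest for Capn11.

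The genes of the secondary and tertiary granules were lower at 10 °C as a group. Of the 12 genes on this list, all tested, 11 were called lower and none higher, against 2.04% of all genes. Their median log2 fold change was -1.99. Ltf encodes lactoferrin, the iron-binding protein of the secondary granule. It measured 51.7, 63.0 and 87.9 CPM at 22 °C and 6.98, 13.6 and 10.7 CPM at 10 °C. The groups were far apart, with the highest cold library well under the lowest control. The log2 fold change was -2.70 (SE 0.270), a fold of 6.48, with an adjusted p of 0.0249. Camp encodes cathelicidin, an antimicrobial peptide. It measured 17.1, 29.1 and 38.6 CPM at 22 °C and 4.56, 5.04 and 3.16 CPM at 10 °C. The cold libraries were close together and the controls spread over more than 2-fold, with a log2 fold change of -2.70 (SE 0.308) and an adjusted p of 0.0316. Ngp, the neutrophilic granule protein of the same cathelin family, measured 40.1, 51.3 and 80.8 CPM at 22 °C and 8.64, 11.8 and 8.37 CPM at 10 °C, a log2 fold change of -2.57 (SE 0.267, adjusted p = 0.0249). Camp, Ngp and Ltf lie in this order on chromosome 9, with 570.1 kb between Camp and Ngp and 596.3 kb between Ngp and Ltf.

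The promoters of 4 genes of different granule stages and of Camp are shown because their genes moved together in these libraries. Each is the stretch upstream of the annotated gene within the 250 bases before the RefSeq start, build GRCm38.p6, written 5′ to 3′ on the gene's strand. Capitals mark matches to a C/EBP-like motif, TTNNGNAA or TTNCNNAA on the other strand, or to the core GAGGAA of PU.1, TTCCTC on the other strand. Both motifs, of factors known to drive granulocyte genes, were chosen after the values were seen.
Ltf, chr9:111019042-111019270, plus strand: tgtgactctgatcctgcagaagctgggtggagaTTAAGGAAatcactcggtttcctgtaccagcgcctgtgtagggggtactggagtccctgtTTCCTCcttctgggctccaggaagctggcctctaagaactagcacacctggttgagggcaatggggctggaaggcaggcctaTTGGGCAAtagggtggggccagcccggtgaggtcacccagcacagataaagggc
Ngp, chr9:110419558-110419746, plus strand: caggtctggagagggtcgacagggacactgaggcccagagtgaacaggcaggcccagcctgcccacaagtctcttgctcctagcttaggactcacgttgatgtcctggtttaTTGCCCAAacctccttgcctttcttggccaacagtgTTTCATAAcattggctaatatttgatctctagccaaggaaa
Camp, chr9:109849618-109849706, minus strand: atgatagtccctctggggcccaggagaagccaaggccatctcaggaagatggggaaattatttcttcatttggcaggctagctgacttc
Elane, chr10:79886062-79886246, plus strand: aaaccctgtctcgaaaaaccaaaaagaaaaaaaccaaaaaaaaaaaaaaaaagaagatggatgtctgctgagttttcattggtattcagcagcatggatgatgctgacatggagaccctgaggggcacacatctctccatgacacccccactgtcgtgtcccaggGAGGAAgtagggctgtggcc
S100a9, chr3:90695722-90695971, minus strand: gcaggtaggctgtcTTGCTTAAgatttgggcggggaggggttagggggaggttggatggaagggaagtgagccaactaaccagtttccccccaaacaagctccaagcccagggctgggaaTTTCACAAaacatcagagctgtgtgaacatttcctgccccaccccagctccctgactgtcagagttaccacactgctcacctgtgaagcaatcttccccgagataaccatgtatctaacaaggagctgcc
The printed stretches of Ltf, Ngp and S100a9 hold 2 C/EBP-like matches each, those of Ltf and Elane 1 PU.1 core each, and the 89 bases of Camp neither. No matches overlapped. Among 32851 promoters of the reference, 36.8% hold the C/EBP-like motif and 23.3% the PU.1 core in the 250 bases before the start, so these matches are common.

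The remaining secondary and tertiary granule genes were lower to different degrees. Lcn2, which encodes the iron-siderophore carrier lipocalin, measured 16.7, 23.7 and 31.6 CPM at 22 °C and 3.14, 4.92 and 3.27 CPM at 10 °C. This is a separation as wide as that of Ltf, with a log2 fold change of -2.65 (SE 0.273, adjusted p = 0.0249). Mmp9, the gelatinase of the tertiary granule, had the smallest p of all genes but a smaller change. It measured 43.4, 51.9 and 52.4 CPM at 22 °C and 21.6, 21.4 and 24.6 CPM at 10 °C, tight in both groups, with a log2 fold change of -1.13 (SE 0.109, adjusted p = 0.0249). Chil3 (-1.83), Itgb2l (-2.15), Mmp8 (-1.46), Cd177 (-1.30) and Ltb4r1 (-0.96) were called at adjusted p values of 0.0533 to 0.485. Olfm4 (-2.14) was called too, but its 22 °C mean rests on 1 library. It measured 0.692, 0.693 and 4.81 CPM at 22 °C and 0.178, 0.695 and 0.510 CPM at 10 °C, and it is also a gene of the intestinal crypt, highest in the library with the ileum genes. Pglyrp1, a peptidoglycan-binding granule protein, was the 1 member not called, at 12.6, 14.3 and 14.1 CPM against 12.6, 11.1 and 8.88 CPM.

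The primary granule genes, which mark neutrophil precursors, showed the largest median change of the cell type lists, -2.52 on the log2 scale. Of 8 genes, all tested, 7 were called lower and none higher. Mpo encodes myeloperoxidase and lies on chromosome 11 from 87793581 to 87804413 (GRCm38). It measured 20.9, 27.6 and 33.6 CPM at 22 °C and 2.31, 5.27 and 4.69 CPM at 10 °C. The lowest control library was about 4 times the highest cold library. The log2 fold change was -2.75 (SE 0.294), a fold of 6.74, and the adjusted p 0.0253. Elane, which encodes neutrophil elastase, measured 4.53, 7.47 and 7.59 CPM at 22 °C and 0.355, 1.56 and 0.714 CPM at 10 °C. The fitted log2 fold change of -2.85 (SE 0.454) was the largest of the list, but few reads stood behind it, 270 counts at 22 °C and 40 at 10 °C, and the adjusted p was 0.123. Its neighbour Prtn3, proteinase 3, changed by -2.60 (adjusted p = 0.103), and the 2 genes are 3.1 kb apart on chromosome 10. Ctsg, cathepsin G, changed by -2.48, Fcnb, a ficolin, by -2.55, Cebpe, a factor of the late precursor, by -1.76 and Ms4a3, a marker of granulocyte and monocyte precursors, by -1.53, at adjusted p values of 0.123 to 0.408. Gfi1, a repressor that acts in the same precursors and also in lymphoid cells, was the exception. It measured 9.44, 6.70 and 7.51 CPM at 22 °C and 7.93, 8.05 and 8.98 CPM at 10 °C, and the groups overlapped.

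The mature neutrophil list was lower throughout, by less. Of 12 genes 11 were tested, and all 11 were called lower, with a median of -1.22. S100a9, which with S100a8 forms calprotectin, measured 141, 275 and 287 CPM at 22 °C and 48.4, 54.3 and 53.6 CPM at 10 °C. The cold libraries were nearly level, while replicate 1 at 22 °C was well below the other controls and was still above every cold library. The log2 fold change was -2.17 (SE 0.246, adjusted p = 0.0316). S100a8 followed at -2.07 (SE 0.267, adjusted p = 0.0531) and lies 22.6 kb from S100a9 on chromosome 3. Per kilobase of exon, S100a9 was the most abundant of these transcripts at 22 °C, with 449 CPM per kb against 226 for S100a8, 46.9 for Ngp and 7.99 for Mpo. Retnlg, a resistin-like protein, measured 24.2, 31.8 and 36.7 CPM at 22 °C and 13.1, 13.2 and 13.6 CPM at 10 °C (-1.22, SE 0.151, adjusted p = 0.0440). Csf3r, the receptor of the growth factor G-CSF, measured 72.3, 97.2 and 77.4 CPM at 22 °C and 37.1, 37.1 and 44.2 CPM at 10 °C (-1.06, SE 0.128, adjusted p = 0.0394). Cxcr2, the chemokine receptor that draws neutrophils into blood, had the smallest change of the list, from 29.2, 36.9 and 34.5 CPM to 24.6, 21.5 and 19.7 CPM (-0.60, adjusted p = 0.370). Ly6g, the defining surface marker of mouse neutrophils, missed the filter with 64 counts at 22 °C and 6 at 10 °C, a ratio of 11.1 per sequenced read (exact 95% counting interval 4.83 to 31.4).

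The summed level of the primary granule list was 48.8 to 74.2 CPM at 22 °C and 13.3 to 20.2 CPM at 10 °C. The secondary and tertiary list summed to 237 to 398 against 80.6 to 93.5 CPM, and the mature list to 379 to 676 against 172 to 186 CPM. No list overlapped between the groups. In bulk RNA, fewer cells of a type and less RNA per cell cannot be told apart. All 11 genes with an adjusted p under 0.05 stayed called when any 1 library was left out, but none kept an adjusted p under 0.05 without replicate 2 at 22 °C or without any 1 of the 10 °C libraries, and 3 of them (Ngp, Ltf and Lcn2) kept it without replicate 3 at 22 °C. Without that library the primary granule list had 7 of 8 called lower with a median of -2.27, the secondary list 10 of 11 with -1.68 and the mature list 9 of 11 with -1.10.

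Hp, Capn11 and further genes moved in the same direction. Hp encodes haptoglobin, a binder of free haemoglobin that neutrophils carry in granules. It measured 29.8, 43.3 and 35.6 CPM at 22 °C and 15.3, 10.6 and 11.5 CPM at 10 °C (-1.53, SE 0.179, adjusted p = 0.0347). Capn11 had the largest fall of all named genes, 43, 22 and 32 counts at 22 °C and 2, 4 and 1 counts at 10 °C. This is a 14.4-fold difference per read (exact 95% counting interval 6.75 to 36.9), with a fitted log2 fold change of -3.78 (SE 0.389, adjusted p = 0.0249). Among called genes outside the lists, picked after their values were seen, were Slfn4, a Schlafen gene of myeloid cells (-2.01, adjusted p = 0.0668), Abca13, a transporter gene (-1.38, adjusted p = 0.0668), Pi16, a peptidase inhibitor gene (-0.99, adjusted p = 0.0556), and Padi4, the histone-citrullinating enzyme of neutrophils (-0.86, adjusted p = 0.466). Pi16 was the most even of these, at 9.75, 10.6 and 9.84 CPM against 5.03, 5.10 and 5.10 CPM.

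**Figure D3:**
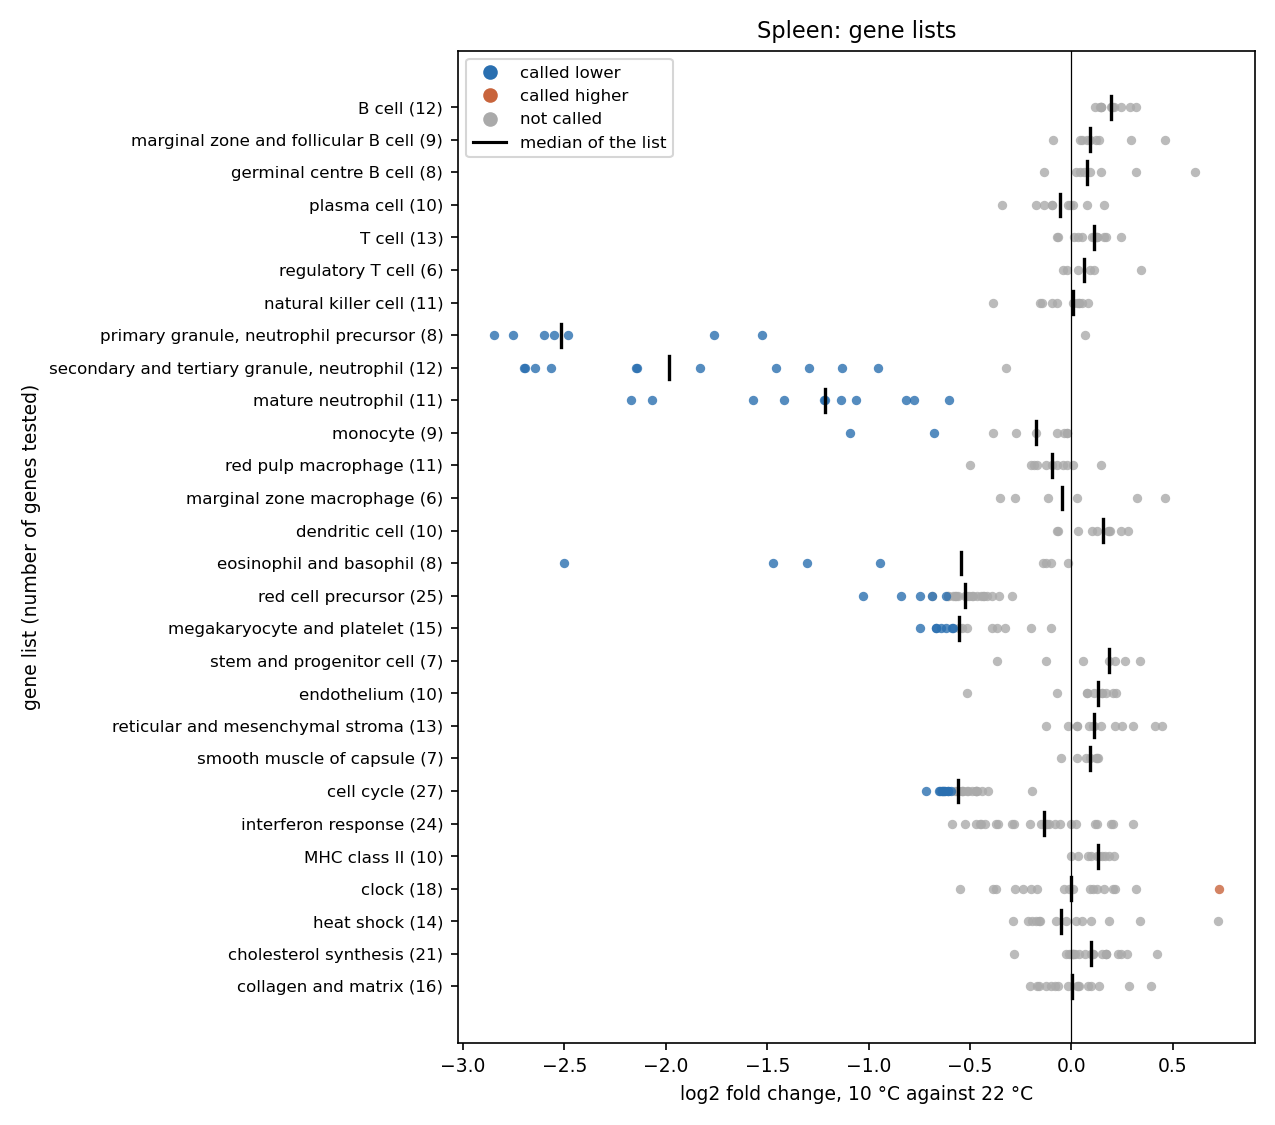
Log2 fold change of every tested gene of 28 lists in the spleen at 10 °C against 22 °C, on a linear axis with 1 point per gene. Blue points are called lower, orange points called higher and grey points not called, and a black bar gives the median of each list. The 3 neutrophil lists lie farthest to the left, with medians of -2.52, -1.99 and -1.22.

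Of the other blood cell lists, the granule genes of eosinophils and basophils were also lower in part. Of 8 genes tested of 10, 4 were called lower and none higher, with a median of -0.54. Epx, eosinophil peroxidase, measured 3.21, 4.62 and 11.2 CPM at 22 °C and 0.947, 1.33 and 1.02 CPM at 10 °C. The groups did not overlap, and replicate 3 was the highest control (-2.50, SE 0.488, adjusted p = 0.320). Prg2, the major basic protein gene, measured 16.98, 24.4 and 49.3 CPM against 10.6, 11.3 and 10.7 CPM (-1.47, adjusted p = 0.485), with the same order. Siglecf, a surface lectin of eosinophils (-1.31), and Prss34, a basophil protease (-0.95), were called, while the chemokine receptor Ccr3 differed by -0.02 with overlapping groups. Ear6, an eosinophil ribonuclease gene of a family of close copies, changed by -2.62 (183 counts at 22 °C, 32 at 10 °C). Without replicate 3 at 22 °C the same number, 4 of 8, was called, with Epx at -1.80, Prg2 at -0.92 and Ear6 at -1.92.

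Of 9 monocyte genes 2 were called lower, against 2.04% of all genes, with a median of -0.18. At a p of at most 0.05 4 were lower, against 6.35% of all genes. The same number were lower without overlap, against 8.46% of all genes. The 2 called genes were Vcan, the proteoglycan versican, at 11.3, 19.3 and 15.3 CPM against 8.46, 6.37 and 6.53 CPM (-1.09, adjusted p = 0.320), and F13a1, a coagulation factor subunit of monocytes and platelets (-0.68, adjusted p = 0.485). Ccr2, the receptor that lets classical monocytes leave bone marrow, measured 79.0, 87.5 and 78.7 CPM against 82.4, 64.6 and 70.0 CPM, and the groups overlapped. Il1b, the interleukin 1 beta gene of activated myeloid cells, was the 1 called gene of the cytokine and chemokine list, of 12 tested. It measured 69.9, 75.9 and 51.8 CPM at 22 °C and 43.9, 27.7 and 33.3 CPM at 10 °C (-0.91, SE 0.192, adjusted p = 0.421).

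The megakaryocyte and platelet genes were lower by a smaller amount, between -0.75 and -0.10. Of 15 genes, all tested, 7 were called lower, none higher, and 11 did not overlap between the groups, where 8.46% of all genes were lower without overlap. The median was -0.56. Ppbp, the platelet basic protein, measured 104, 141 and 153 CPM at 22 °C and 85.5, 86.2 and 93.8 CPM at 10 °C (-0.59, SE 0.137, adjusted p = 0.485). Gp9, a subunit of the von Willebrand factor receptor, measured 20.1, 22.6 and 26.5 CPM against 10.7, 14.5 and 16.3 CPM (-0.75, adjusted p = 0.485). Gp5 (-0.64), Gp6 (-0.59), Gp1bb (-0.62), the integrin Itga2b (-0.67) and Treml1 (-0.67) were called as well. Pf4, a platelet chemokine, missed the fold limit at -0.56. Gp1ba (-0.10) was not called. The number called fell to 2 without replicate 3 at 22 °C, with a median of -0.44, and to 1 without replicate 1 at 10 °C, with -0.48, and it was 4 without replicate 2 at 10 °C.

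The red cell precursor genes were also lower on average, yet the groups overlapped for most. Of 26 genes 25 were tested, of which 5 were called lower and none higher, against 2.04% and 0.638% of all genes. Only 2 were lower without overlap, a share near the 8.46% of all genes. The median was -0.53. Klf1, the erythroid Krüppel-like factor, measured 114, 135 and 249 CPM at 22 °C and 58.3, 112 and 108 CPM at 10 °C (-0.84, SE 0.328, adjusted p = 0.485). Replicate 3 at 22 °C was nearly 2 times its nearest library, and the cold replicate 1 was the lowest. Car1 (-1.03), an erythroid carbonic anhydrase, Rhag (-0.74), Tal1 (-0.69) and Epor (-0.62), the erythropoietin receptor, were the other called genes. The globin gene Hbb-bs measured 7444, 17090 and 16620 CPM at 22 °C and 8096, 10290 and 12950 CPM at 10 °C, with replicate 1 at 22 °C as low as the cold libraries. Alas2, the first enzyme of haem synthesis in red cells, was spread in the same way at 596 to 1301 against 670 to 1003 CPM. No member was called without replicate 3 at 22 °C (median -0.32) or without replicate 1 at 10 °C (median -0.29), whereas 23 were called without replicate 1 at 22 °C, 3 without replicate 2 at 22 °C and 13 without replicate 3 at 10 °C.

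Cell cycle genes had a median change close to that of the red cell genes, but more of them were lower without overlap, 9 against 2. Among all genes 8.46% were lower without overlap. Of 27 genes, all tested, 10 were called lower and 21 had a p of at most 0.05 and were lower, against 6.35% of all genes, with a median of -0.56. Aurka, a mitotic kinase, measured 43.9, 59.7 and 74.2 CPM at 22 °C and 28.1, 40.8 and 39.5 CPM at 10 °C (-0.72, SE 0.206, adjusted p = 0.485). Cdc20, an activator of mitotic exit, changed by -0.65, Plk1 by -0.63, the replication helicase subunit Mcm7 by -0.61 and Cdk1 by -0.63, all called. Mki67, the proliferation marker Ki-67, measured 1214, 1674 and 1974 CPM against 836, 1233 and 1395 CPM and was not called. In all of these replicate 3 was the highest control, and replicate 1 the lowest cold library. No cell cycle gene was called without replicate 3 at 22 °C (median -0.29) or without replicate 1 at 10 °C (median -0.42), 17 were called without replicate 3 at 10 °C and 24 without replicate 1 at 22 °C.

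Replication histones, a family of near-identical genes grouped here after their values were seen, gave the most calls of any group. Of 53 tested 47 were called lower and none higher, with a median of -0.92. Hist1h2ad measured 56.1, 61.6 and 101 CPM at 22 °C and 18.4, 37.7 and 30.7 CPM at 10 °C (-1.34, SE 0.294, adjusted p = 0.473), and the family summed to 7811, 9699 and 14480 CPM against 4090, 7269 and 6850 CPM. As for the cell cycle genes, replicate 3 was the highest control and replicate 1 the lowest cold library, but the groups did not overlap. Without replicate 3 at 22 °C 26 of 52 were called, and without replicate 1 at 10 °C 31 of 53. Counts of single members are uncertain, since reads can match several copies, and most of these messages lack a poly(A) tail.

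**Figure D4:**
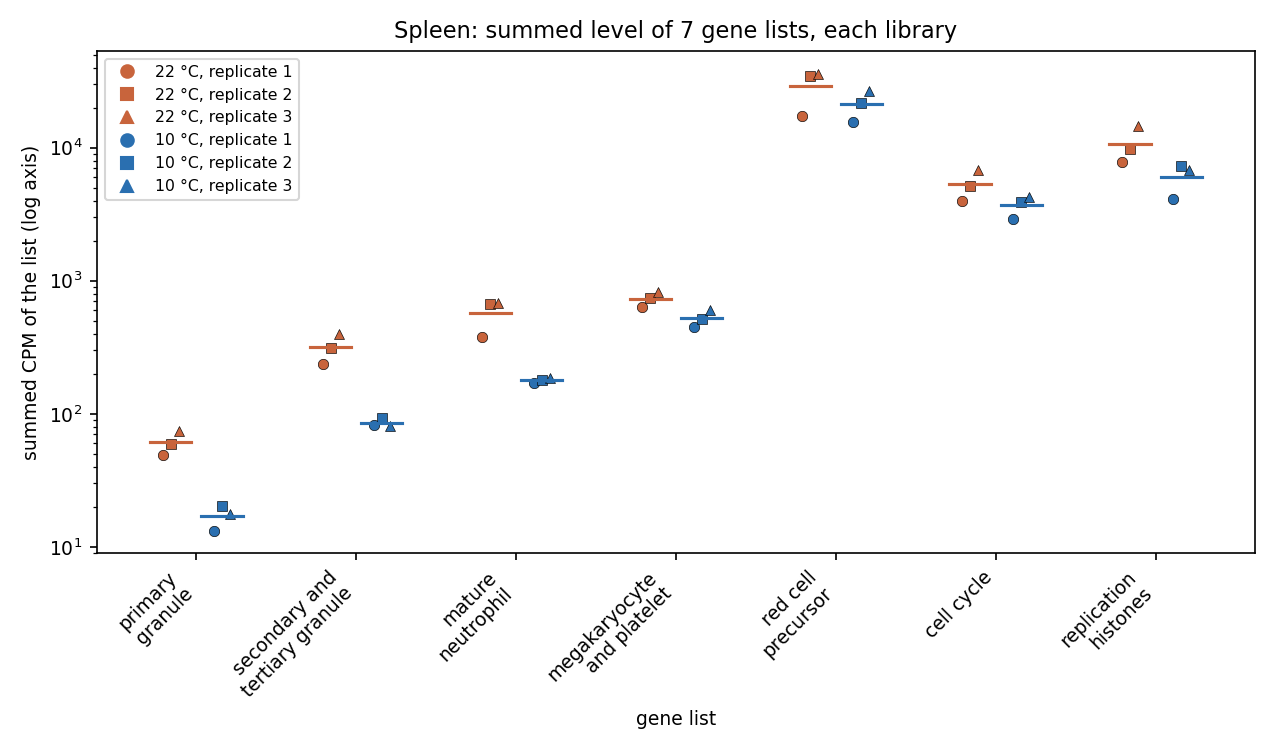
Summed CPM, on a log axis, of 7 gene groups in each spleen library. Symbols mark the replicate, colours the temperature and bars the group mean. The neutrophil, megakaryocyte and histone groups do not overlap between temperatures, while for the red cell and cell cycle lists a 10 °C library lies above the lowest 22 °C library.

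The ileum trace was highest of the 6 libraries in replicate 3 at 22 °C. So were the sums of the 3 neutrophil lists and of the megakaryocyte, red cell, cell cycle and histone groups. The counts of neutrophil calls without this library are given above. With 1912 ileum-enriched genes left out all 11 genes with an adjusted p under 0.05 kept it. That fit leaves the counts of the other genes unchanged, so it cannot test what this library adds to the neutrophil result. Of the 288 genes called lower, 13 were ileum-enriched. These were 13 of 317 ileum-enriched genes tested, against 2.04% of all genes called lower. Another 4 of the 317 were called higher, against 0.638% of all genes. Within the 22 °C group the primary granule sum was 48.8, 59.7 and 74.2 CPM and the secondary and tertiary sum 237, 313 and 398 CPM. The mature neutrophil sum, at 379, 666 and 676 CPM, had the same order, as did the red cell sum, at 17220, 34450 and 36050 CPM. At 10 °C the red cell sum was 15640, 21610 and 26710 CPM, and the mature neutrophil sum, at 172, 179 and 186 CPM, had the same order. The primary granule sum, at 13.3, 20.2 and 17.8 CPM, and the secondary and tertiary sum, at 82.5, 93.5 and 80.6 CPM, did not. The part of the red cell sum in the neutrophil result was not tested.

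Red pulp macrophage genes changed little. Of 11 tested none was called, and the median was -0.10. Spic, the factor that defines these macrophages, measured 148, 182 and 166 CPM against 153, 126 and 157 CPM, and the iron exporter Slc40a1 836, 1109 and 982 CPM against 899, 756 and 894 CPM, both overlapping. Hmox1, haem oxygenase, which opens the haem ring of ingested red cells, was the exception without overlap. It measured 560, 716 and 685 CPM at 22 °C and 442, 406 and 539 CPM at 10 °C (-0.50, SE 0.132), a p of 0.00492 and an adjusted p of 0.485, under the fold limit. The iron handling list had 4 of 15 tested called lower, namely Ltf, Lcn2 and Hp of the neutrophil genes and Steap3, a ferrireductase of red cell precursors (-0.73). The metallothioneins, which bind zinc and copper, were the 2 called genes of 15 in the glucocorticoid list, Mt2 at 5.79, 9.78 and 13.97 CPM against 4.62, 4.75 and 4.80 CPM (-1.05, adjusted p = 0.485) and Mt1 by -0.65 with overlapping groups.

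The lymphoid cell lists held no called gene, while antibody and T cell receptor segments, which did, are given under other observations. None of 12 B cell, 9 marginal zone and follicular B cell, 8 germinal centre, 10 plasma cell, 13 T cell, 6 regulatory T cell and 11 natural killer cell genes tested passed the rule. Without replicate 1 at 22 °C 1 gene each of the marginal zone and follicular, germinal centre and T cell lists was called higher. In that fit all 12 B cell genes were higher at a p of at most 0.05, against at most 2 with any other library left out. Without replicate 3 at 10 °C 1 germinal centre gene was called higher. The B cell list had a median of 0.20, and all 12 members were above 0, between 0.12 and 0.32. Ms4a1, the gene of the surface protein CD20, measured 793, 760 and 735 CPM at 22 °C and 1125, 922 and 803 CPM at 10 °C (0.32, SE 0.120, adjusted p = 0.485), just without overlap. Fcer2a, the low-affinity IgE receptor CD23 of follicular B cells, measured 160, 127 and 105 CPM against 168, 194 and 178 CPM (0.46, SE 0.147, adjusted p = 0.485). Cd3e, of the T cell receptor complex, measured 23.6, 22.4 and 19.5 CPM against 23.4, 23.8 and 19.5 CPM, and Jchain, the joining chain of plasma cells, 812, 852 and 658 CPM against 963, 650 and 702 CPM, both without any shift. The MHC class II list had a median of 0.13 and no call in 10 genes.

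Dendritic cell, stromal and vessel genes did not pass the rule either. The dendritic cell list had a median of 0.15 over 10 genes and no call. Of 6 marginal zone macrophage genes none was called (median -0.04), with Cd209a, a lectin receptor, at 12.4, 13.6 and 12.6 CPM against 20.2, 16.6 and 16.2 CPM (0.46, SE 0.121, adjusted p = 0.485). Of the stroma, Cxcl13, the chemokine that guides B cells into follicles, measured 107, 94.99 and 91.7 CPM against 163, 125 and 113 CPM (0.45, SE 0.138, adjusted p = 0.485), again without overlap. Endothelial (median 0.13 over 10 genes), smooth muscle (0.09 over 7) and collagen genes (0.01 over 16) held no call. The progenitor list had none in 7, with Meis1 at 0.34.

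Interferon response genes were lower by amounts under the fold limit. Of 24 tested none was called, 8 were lower at a p of at most 0.05 and 1 was higher, against 6.35% and 3.64% of all genes, and the median was -0.14. Ifi27l2a measured 106, 133 and 105 CPM at 22 °C and 85.0, 86.2 and 85.0 CPM at 10 °C (-0.42, SE 0.102, adjusted p = 0.485). Irf7, the interferon regulatory factor that amplifies the response, changed by -0.29, and the antiviral genes Oasl2 and Oas1a by -0.37 and -0.45, each without overlap. Without replicate 2 at 22 °C 4 were lower at that p, in the fit of all 48 libraries of the table none was, and without replicate 1 at 22 °C 3 were called.

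Genes tied to temperature gave no call, and those tied to the time of day moved mostly by amounts under the fold limit. The cold-inducible RNA-binding proteins Cirbp (0.01) and Rbm3 (-0.02) overlapped between the groups. None of 14 heat shock genes, which ran from -0.286 to 0.725, or of 8 adrenergic receptor and cAMP genes was called. Without replicate 1 at 10 °C 1 heat shock gene was called lower, and without replicate 3 at 10 °C 1 was called higher. Without replicate 1 at 22 °C or replicate 2 at 10 °C 1 adrenergic receptor and cAMP gene was called higher. Of 18 clock genes 2 were higher and 4 lower at a p of at most 0.05, against 3.64% and 6.35% of all genes. Without overlap 4 were higher and 4 lower, against 7.25% and 8.46% of all genes. The 1 called was Npas2, a relative of CLOCK, at 1.95, 2.39 and 1.88 CPM against 2.96, 3.59 and 3.78 CPM (0.73, SE 0.217, adjusted p = 0.485). Arntl, the other activator of the loop, measured 42.0, 41.7 and 40.0 CPM against 54.3, 49.9 and 50.01 CPM (0.32, SE 0.0810, adjusted p = 0.485), while Nr1d2 (-0.28) and Per3 (-0.37), on the repressor side, were lower, all without overlap and under the fold limit. The hours at which the spleens were taken are not given in the sources used here. Of 21 cholesterol synthesis genes none was called, with Hmgcs1 at 0.27, and of 16 genes of triglyceride breakdown 1 was called higher, Pnpla3.

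Of the 90 called rises none had an adjusted p under 0.05. The 10 largest among named genes without overlap and with a mean of at least 2 CPM were Smad9 (0.97), Akr1cl (0.96), Me1 (0.94), Chl1 (0.88), L3hypdh (0.86), Kcnmb1 (0.84), Tcf7l1 (0.83), Cyyr1 (0.78), Sult2b1 (0.78) and Tmeff1 (0.75), all at an adjusted p of 0.485. Tcf7l1, a transcription factor of the Wnt pathway, measured 1.95, 1.62 and 1.73 CPM at 22 °C and 2.84, 3.19 and 3.47 CPM at 10 °C. Me1, malic enzyme, which supplies NADPH for fat synthesis, measured 4.09, 4.62 and 2.70 CPM against 8.88, 4.92 and 8.16 CPM. The adipocyte genes were likewise low in replicate 3 at 22 °C and in replicate 2 at 10 °C. Their sum was 182, 179 and 109 CPM at 22 °C and 221, 129.5 and 229 CPM at 10 °C, with Adipoq at 2.86 to 7.86 CPM, and their part in this rise was not tested. Retn, the adipocyte hormone resistin, was the 1 called adipocyte gene of 9 tested, with overlapping groups. Of the called rises, those with the smallest p were Apol7c, an apolipoprotein L gene, at 42.3, 41.6 and 41.4 CPM against 69.8, 60.8 and 59.6 CPM (0.60, SE 0.0877, adjusted p = 0.0791), and Igfbp5, a binder of insulin-like growth factors, at 44.9, 41.7 and 32.6 CPM against 63.7, 60.3 and 71.8 CPM (0.71, adjusted p = 0.221), both picked after their values were seen. The largest fitted rises of all belonged to Gm20594 (4.23), Map7d2 (3.89), Gdf7 (3.86) and Lars2 (3.58), which overlapped between the groups and were, like Lars2, highest in replicates 2 and 3 at 10 °C. Without these 4 genes 367 genes were called and all 11 adjusted ones kept their call.

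Bone marrow, where neutrophils are made, was compared in the same way to place the spleen result. It has 6 libraries at each temperature, each of 1 mouse, with 15591374 to 22139577 counts, made at another site with another kit, so only the changes are set side by side. In marrow 1.29% of genes met the p and fold rule used in spleen, and 2377 of 12525 genes had an adjusted p under 0.05, or 19%, with 11.6% lower and 7.33% higher. The neutrophil genes were lower there too, by less. Of the secondary and tertiary granule list 12 of 12 were lower at an adjusted p under 0.05, with a median of -0.42, of the primary list 6 of 8 with -0.27 and of the mature list 9 of 11 with -0.47. Ltf ran from 5874 to 8711 CPM (median 8108) at 22 °C and from 5423 to 5712 (median 5579) at 10 °C in marrow, without overlap, at -0.47. Mpo ran from 1780 to 2267 CPM (median 2056) against 1612 to 1901 (median 1830), with overlap, at -0.19 (adjusted p = 0.0719).

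The difference between the changes in the 2 organs was tested in 1 fit over all 18 libraries. It had an adjusted p under 0.05 for 785 of 13146 genes, or 5.97%. Mpo fell by 2.57 more on the log2 scale in spleen than in marrow (SE 0.245, adjusted p = 3.95e-05), Camp by 2.28 more (SE 0.264, adjusted p = 0.000264) and Ltf by 2.22 more (SE 0.254, adjusted p = 0.000264). At that limit the spleen change was the lower for 7 of 8 primary granule, 9 of 12 secondary and tertiary and 3 of 11 mature neutrophil genes. This number depended strongly on which spleen libraries were in the fit. With 1 left out, a choice made after seeing the data for all but replicate 3 at 22 °C, it was 1941 without replicate 1, 318 without replicate 2 and 14 (0.107%) without replicate 3 at 22 °C, and 15, 54 and 1052 without replicates 1, 2 and 3 at 10 °C. In these fits 3 to 7 of the 8 primary and 4 to 10 of the 12 secondary and tertiary granule genes were lower in spleen at that limit. The 14 without replicate 3 at 22 °C included 5 primary, 4 secondary and tertiary and 2 mature genes, among them Mpo (-2.40, adjusted p = 0.000218), Camp (-1.99, adjusted p = 0.000718) and Ltf (-1.99, adjusted p = 0.000848).

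The red cell genes were higher in marrow. Of 22 red cell precursor genes tested there 18 were higher at an adjusted p under 0.05 and none lower, with a median of 0.29, against -0.53 in spleen. Of 15 megakaryocyte genes none passed in either direction (median 0.14), and of 27 cell cycle genes 3 were higher (median 0.09), against 7.33% of all genes. The difference between the organs had an adjusted p under 0.05 for 11 of 24 red cell and 17 of 27 cell cycle genes, and for no megakaryocyte gene. It had one for no gene of either list without replicate 3 at 22 °C, replicate 1 at 10 °C or replicate 2 at 10 °C, for 1 and 9 without replicate 2 at 22 °C, and for 20 and 26 without replicate 1 at 22 °C. Hmox1 went from -0.50 in spleen to 0.56 in marrow, a difference of -1.06 (SE 0.275, adjusted p = 0.0384) that stayed between -1.18 and -0.96 with any 1 spleen library left out, while its adjusted p ranged from 0.0155 to 0.1602. Of the interferon genes 16 of 24 were lower in marrow at an adjusted p under 0.05 (median -0.50), and the difference between the organs had one for none of the 24.

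**Figure D5:**
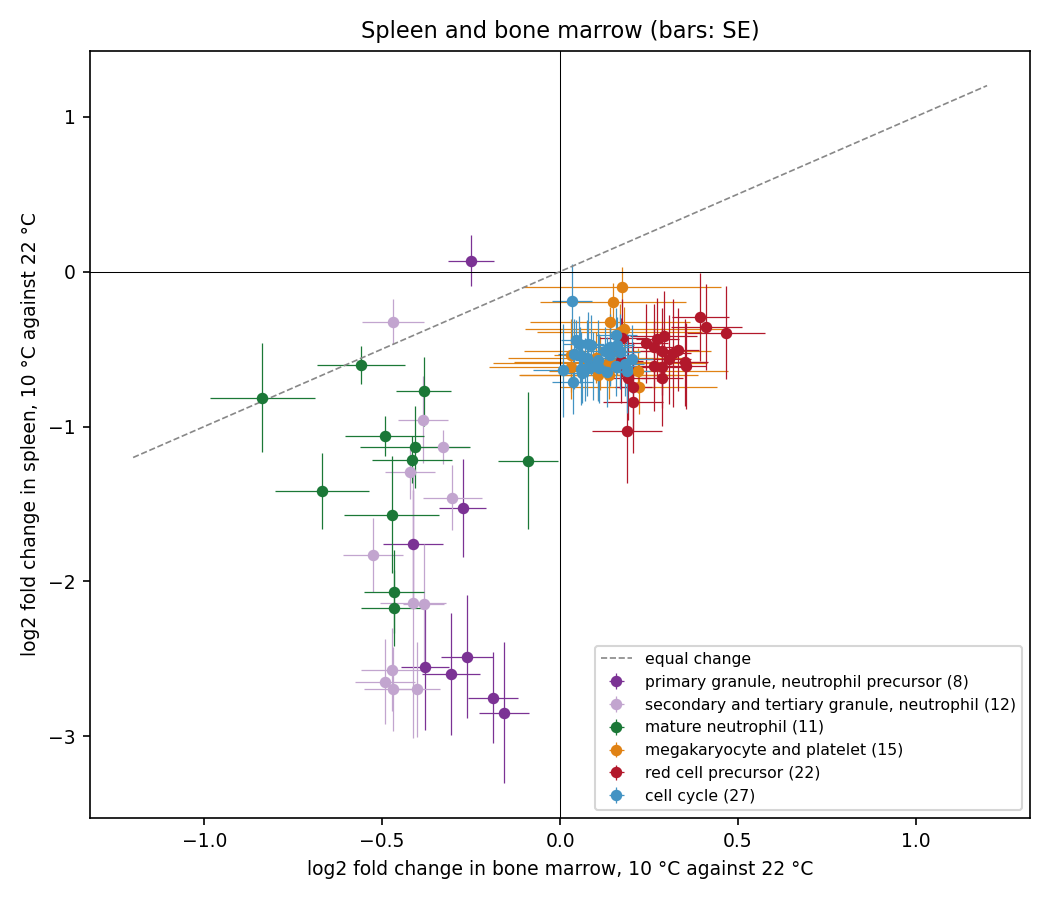
Log2 fold change at 10 °C against 22 °C in bone marrow (horizontal axis) and spleen (vertical axis) for the genes of 6 lists, both axes linear, with bars of 1 SE and a dashed line of equal change. Most neutrophil genes are below 0 in both organs and lie under the line. The red cell, megakaryocyte and cell cycle genes are below 0 in spleen and above 0 in marrow.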

How the data were processed

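Spleen tissue was frozen, RNA was taken up in Trizol and sequenced on a HiSeq 2000 with a kit that does not mark strand, so antisense reads cannot be told apart. The authors deposited raw counts per gene, whole numbers without scaling, made with STAR and HTSeq on mm10. The labels name STAR 2.5.3a, Picard 1.141 and HTSeq 0.6p1. Identifiers were matched to symbols and positions in GENCODE M21 (GRCm38, the same assembly) for 21583 of 21647 rows. Exon lengths come from the same annotation. Promoter sequences come from RefSeq, GRCm38.p6.

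The 6 spleen libraries were fitted alone with edgeR 4.0.16 (limma 3.58.1, R 4.3.3): TMM scaling, average log2 CPM above 0, quasi-likelihood F-test, two-sided, with Benjamini-Hochberg adjustment over all genes tested. The p and fold limits are those of the study, which used edgeR's exact test. The SE of a log2 fold change is its size over the square root of F. CPM use the TMM library sizes. Reads carry no molecular identifiers, so counting intervals cover counting error only. The test was checked on simulated counts. These had the same dispersion for every gene and no shift shared by the genes of a library, so the check does not cover such shifts.

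Spleen and bone marrow were joined by symbol, 19193 unchanged and 1021 through an older symbol. The columns of the bone marrow table name the group but not the sample. Their counts were made by the authors on the same genome build.

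The genes and lists, 44 lists with 537 genes, were chosen with earlier results of these data known. Named genes are those with an adjusted p under 0.05, the 10 largest rises and 10 largest falls among called genes without overlap and with a higher mean of at least 2 CPM, up to 4 tested members of each list by p, and the first 3 markers of each cell type list. Predicted genes, clones, receptor and antibody segments and pseudogenes were counted but not named among the largest changes. Further members of the leading lists are named for completeness. Alternatives were edgeR's exact test, DESeq2 1.42.0, library size only, filterByExpr, no filter beyond 1 count, a fit of all 48 libraries of the table, each library left out, the replicate number as a block and the table without ileum-enriched genes, which are over 20 times higher in ileum. The fit without Lars2 and 3 genes that follow it and the list counts were added after seeing the data. Tables other than the one that holds the spleen and that of bone marrow were not used here.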

Additional observations from a re-analysis of the deposited data

Results flagged for a closer look

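The temperature change differed between spleen and bone marrow, at an adjusted p under 0.05 in the joint fit, for 30 of the 165 named genes tested. For 27 of them the spleen change was the lower. Over all genes the difference passed for 785 of 13146, or 5.97%. The named genes were picked largely by their change in spleen, so this count and direction follow in part from that choice. Each value is the log2 fold change in spleen minus that in bone marrow. Of the granule and neutrophil genes, the difference was -2.57 for Mpo, -2.22 for Ltf, -2.28 for Camp, -2.14 for Lcn2, -2.09 for Ngp, -2.66 for Elane, -2.22 for Ctsg, -2.27 for Prtn3, -2.15 for Fcnb, -1.70 for S100a9, -1.60 for S100a8, -1.13 for Hp, -0.80 for Mmp9 and -0.80 for Retnlg. Of the red cell genes it was -1.21 for Car1, -0.95 for Rhag, -0.88 for Tal1 and -1.04 for Klf1. Of the cell cycle genes it was -0.72 for Cdc20, -0.63 for Mcm3, -0.48 for Bub1b and -0.75 for Aurka. It was -1.51 for Mt2 and -0.69 for Mt1, -1.06 for Hmox1, -2.03 for Epx and -0.48 for Pde4d. The 3 genes with a higher change in spleen were Cd209a at 0.62, Bcl6 at 0.55 and Itgax at 0.46. With 1 spleen library left out, 10 (without replicate 1 at 10 °C) to 30 (without replicate 1 at 22 °C) of the 30 kept an adjusted p under 0.05, and 12 did without replicate 3 at 22 °C. Without that library the difference for Epx was -1.35 (adjusted p = 0.2465). With library size only all 30 kept it. The spleen libraries pool 2 mice each and were made at another site than the marrow libraries of single mice, so organ, pooling and site cannot be told apart in the size of a difference.

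In bone marrow at 22 °C 1 of the 6 libraries stood apart in Epx, with a gap to its neighbour of 0.823 of the range. It was the 1 such case among 16 groups looked at, and chance gives about 1 in 20. The spleen groups of 3 are too small for this check.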

How the results depend on the processing

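The number of called genes, 378, was 248 in the fit of all 48 libraries. Higher calls, 90, were 53 with DESeq2 and 38 in that fit. Leaving out 1 library moved all calls between 245 and 791, higher calls between 81 and 161 and lower calls, 288, between 148 and 630, with replicate 1 at 22 °C left out giving the most and replicate 3 at 22 °C or replicate 1 at 10 °C the fewest lower calls. The 11 genes with an adjusted p under 0.05 became 19 with library size only, 51 with edgeR's exact test, 55 with DESeq2, 18 with no filter beyond 1 count, 17 without ileum-enriched genes and 3 in the fit of all 48 libraries, and 0 to 23 with 1 library left out. At 0 adjusted genes, 248 to 499 genes were still called at an unadjusted p. All 11 stayed called in every alternative except Hp in the fit of all 48 libraries.

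The calls in the primary, secondary and tertiary, mature neutrophil and eosinophil lists stayed within 1.5 times in every alternative, 7 of 8 primary genes being called lower in each. Of the other lists, megakaryocyte calls (7) were 1 in the fit of all 48 libraries and 1 to 10 with 1 library left out. Red cell calls (5) were 8 with library size only, 2 with DESeq2, 2 in the fit of all 48 libraries, 11 with the replicate block and 0 to 23 with 1 library left out. Cell cycle calls (10) were 6 in the fit of all 48 libraries and 0 to 24 with 1 library left out. The members of the 7 leading lists that differed from bone marrow, 48, were 11 without replicate 3 at 22 °C, 74 without replicate 1 and 26 without replicate 2 at 22 °C, and 9 without replicate 1 and 14 without replicate 2 at 10 °C, all but the first added after seeing the data. Defa24, an ileal defensin gene, was fitted at -2.41, at -2.97 without replicate 1 at 22 °C and at 1.44 without replicate 3 at 22 °C, the library with the ileum genes. The cause of the other changes was not tested, beyond the smaller number of libraries.

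The replicate numbers showed no pairing of the spleen libraries, but 3 libraries per group are too few to exclude it. Deviations from the group mean correlated at -0.04, -0.69 and 0.09 between libraries of the same number, and no library correlated best with its own number. With the replicate block 396 genes were called and 145 had an adjusted p under 0.05. Depth limits low genes such as Capn11 and Ly6g, with under 10 counts in the whole 10 °C group.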

Other observations

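Variable segments of antibody genes, grouped after their values were seen, showed no common direction. Of 164 tested, 2 were called higher and 6 lower, and with 1 library left out 3 to 10 were called higher and 2 to 15 lower. The median was -0.02 and the summed level was 1715 to 2238 CPM at 22 °C and 1660 to 2384 CPM at 10 °C. T cell receptor segments, grouped in the same way, were called higher in 5 of 47 and lower in none, against 0.638% of all genes called higher, with a median of 0.21. The number called higher was 1 without replicate 2 at 10 °C, 2 without replicate 1 at 10 °C, 3 without replicate 1 at 22 °C and 2 in the fit of all 48 libraries. Their summed level was 93.5 to 107 CPM at 22 °C and 99.1 to 131 CPM at 10 °C, with overlap. Acute phase genes were called lower in 2 of 11, Hp and Lbp (-0.76), the latter a binder of bacterial lipopolysaccharide. Of 21 immediate early genes 1 was called, Nr4a2 (-0.61), and 5 were lower at a p of at most 0.05, with Fosl2 at 39.1, 48.4 and 53.4 CPM against 32.5, 30.9 and 35.1 CPM. Asns, asparagine synthetase, was the 1 called gene of 15 in the unfolded protein response list, at 37.7, 59.0 and 94.1 CPM against 28.2, 39.2 and 40.9 CPM.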
